A study of Mus musculus with 12 samples.

Results

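Testes of busulfan-treated mice that had received gut microbiota from oligosaccharide-fed donors were compared with testes of busulfan-treated mice that had received microbiota from water-fed donors. The comparison takes 6 of the 12 RNA sequencing libraries of the series, 3 labelled IMA10 and 3 labelled IMC. All mice were of the outbred ICR stock, and both groups had a single busulfan dose when 3 weeks old, then microbiota over 2 weeks, with testes taken 3 weeks later. The IMA10 donors had been given alginate oligosaccharide (spelled Aligina Oligosaccharide in the labels) at 10 mg/kg body weight, and the IMC donors had been given ddH2O. The other 6 libraries serve here as reference levels only: 3 from busulfan-treated mice given saline (Sa) and 3 from untreated mice (Con), whose age the labels do not give. The series text speaks of cultured testis without describing a culture, and no label states that each library is from its own animal. The p-values therefore reflect only how far these samples differ, and that spread may be technical.

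Busulfan, an alkylating agent, depletes dividing germ cells, above all spermatogonia, while Sertoli and Leydig cells largely survive it. Spermatogenesis runs from spermatogonia through meiotic spermatocytes to round and then elongating spermatids, in which histones are replaced by transition proteins and then protamines. A bulk testis library mixes all these cells, and when germ cells are few the transcripts of somatic cells fill a larger share of it. Fewer cells of a type and less RNA per cell cannot be told apart in such data.

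The values are the authors' FPKM, a fragment count divided by the length of the transcript and by the library's mapped fragments, with unknown read depth. Of the 22221 rows of the table, 14093 had at least 1 FPKM in at least 3 of the 6 libraries and were analysed as log2(FPKM + 1). Genes at 1 FPKM or more numbered 13848 to 14206 in the IMC libraries and 12726 to 13835 in the IMA10 libraries. Sertoli and Leydig markers were abundant in all 6 libraries, with lowest mean log2(FPKM + 1) levels of 5.28 and 5.42, both in IMA10 library 3. Germ cell markers were not, with a mean of 1.69 for round spermatid genes in IMA10 library 1. None of the 13 lymphocyte markers found in the table passed the filter, their highest value being 2.73 FPKM. Of the 11 epididymis and adipose markers in the table, 3 passed it: Spink8, at 12.8 to 34.8 FPKM in IMC and 4.20 to 30.2 FPKM in IMA10, Fabp4 and Plin1.

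IMA10 library 3 stood apart from every other library of both groups. The first principal component of the 6 libraries held 85.3% of the variance. The IMC libraries scored 7.8, 13.4 and -36.3 on it, IMA10 libraries 1 and 2 scored -83.1 and -42.4, and IMA10 library 3 scored 140.7. Across the 14093 genes, the correlation of IMA10 library 3 was 0.55 with IMA10 library 1 and 0.67 with library 2, and between 0.93 and 0.94 with the 3 untreated libraries. Values in between were found with IMC libraries 1, 2 and 3 (0.81, 0.82 and 0.68) and with saline libraries 1, 2 and 3 (0.88, 0.82 and 0.76). These are correlations across genes within libraries, and genes are not independent replicates. Whether this library is labelled as it was treated was not tested, and results are therefore given with it and without it.

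No gene passed the test between the groups. In limma with Benjamini-Hochberg adjustment, 0 of 14093 genes were higher and 0 were lower in IMA10 (0.0% in each direction), with a smallest adjusted p of 1. Only 60 genes had an unadjusted p under 0.05, 5 of them higher and 55 lower, where 704.7 would be expected if no gene differed. Without IMA10 library 3, limma with Benjamini-Hochberg adjustment again called 0 genes. The genes with an unadjusted p under 0.05 then numbered 2523, with 2004 lower and 519 higher in IMA10, and the smallest adjusted p was 0.255. That split depended on the scaling. Such genes numbered 1931 lower and 687 higher under median-of-ratios scaling. Under quantile normalization they numbered 1407 lower and 1210 higher. Both scalings of this fit were chosen after seeing the data.

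The IMA10 libraries took opposite directions in many genes. Relative to the range of the 3 IMC libraries, 2588 genes (18.4%) were below it in IMA10 libraries 1 and 2 and above it in library 3. Another 1918 genes (13.6%) were above the range in libraries 1 and 2 and below it in library 3. By contrast, 401 genes (2.85%) lay below the IMC range in all 3 IMA10 libraries and 63 genes (0.447%) above it in all 3. The median log2 difference over all genes was -0.16, and it was -0.00 after median-of-ratios scaling and 0.02 after quantile normalization. The split between the 2 consistent directions changed with the scaling. There were 163 lower and 340 higher genes under median-of-ratios scaling, and 70 lower and 626 higher under quantile normalization. Of the 401 and 63 genes, 37 were lower and 49 higher under all 3 scalings.

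**Figure D1:**
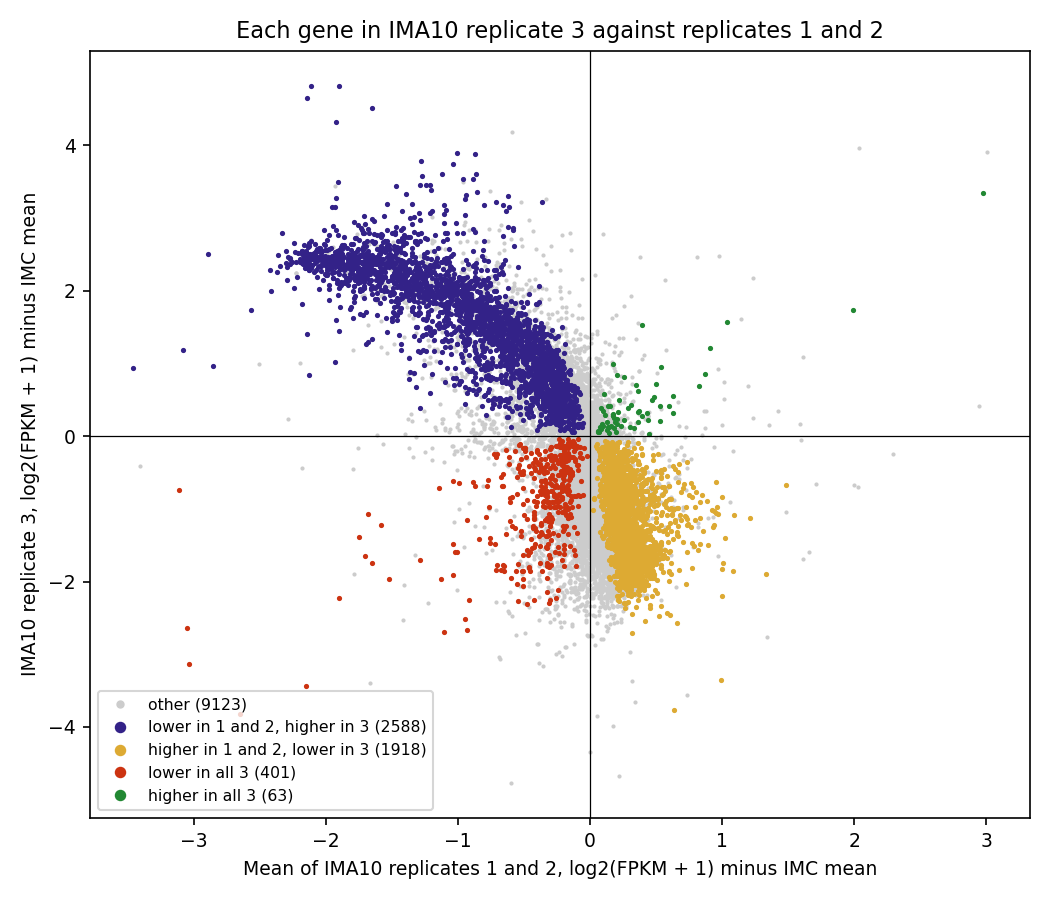
Each point is 1 of the 14093 genes, with the mean of IMA10 libraries 1 and 2 on the x axis and IMA10 library 3 on the y axis, both as log2(FPKM + 1) minus the mean of the 3 IMC libraries. Colours give the class of each gene by the IMC range, and the 2588 and 1918 genes with opposite directions outnumber the 401 and 63 with the same direction.

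Genes of pachytene and later germ cells were mostly in the first of these opposite classes. Of 169 genes on the lists from early meiotic prophase to elongating spermatids, the piRNA pathway and the sperm axoneme that passed the filter, 154 were above the whole IMC range in IMA10 library 3, where 36.3% of all genes were, and 121 were below it in both other IMA10 libraries, where 22.6% of all genes were. Both held for 115 of them, beside 18.4% of all genes. The 6 of 31 early meiotic genes were near that share. The counts were 18 of 24 for pachytene and later genes, 28 of 32 for round and 32 of 34 for elongating spermatid genes. Of the 169, 0 lay outside the IMC range in the same direction in all 3 IMA10 libraries, beside 2.85% of all genes below it and 0.447% above it. Over all 3 libraries the list medians were -0.54 for early meiosis, -0.18 for round spermatids and 0.08 for elongating spermatids, beside -0.16 for all genes, and limma called 0 members in either direction.

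Protamines and transition proteins, which package DNA in the sperm head, had the largest excess in IMA10 library 3. Prm1, protamine 1, was at 44.1, 35.6 and 17.6 FPKM in the IMC libraries and at 5.47, 7.09 and 880.1 FPKM in the IMA10 libraries. Libraries 1 and 2 thus lay below every IMC library and library 3 far above them, and the group difference was 0.19 ± 1.92 (log2, SE; limma adjusted p = 1). Without IMA10 library 3 it was -2.12 ± 0.39 (limma adjusted p = 0.255). In the saline group Prm1 was at 483.8, 366.6 and 27.9 FPKM, and in the untreated testes it was between 10299 and 11022 FPKM.

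Prm2 (protamine 2), Tnp1 and Tnp2 (transition proteins 1 and 2) had the same order of libraries. Prm2 was at 39.8, 37.9 and 14.2 FPKM in IMC and at 5.72, 7.84 and 817.0 FPKM in IMA10. Tnp1 was at 30.1, 21.9 and 14.8 FPKM in IMC and at 2.74, 8.28 and 447.1 FPKM in IMA10. In each, IMA10 library 1 was lowest and IMA10 library 3 highest of the 6.

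The 120 bases before the start of these 4 genes are shown because the genes moved together across libraries. They are from RefSeq (GRCm38.p6), 5′ to 3′ on the gene's strand, which is the minus strand for all 4. Capitals mark a match to TGANNTCA, a motif that reads the same on both strands and that was chosen after the sequences were seen.
Prm1 (chr16:10796824-10796943): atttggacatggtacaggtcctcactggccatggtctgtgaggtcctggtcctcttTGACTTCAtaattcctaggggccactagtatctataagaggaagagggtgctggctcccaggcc
Prm2 (chr16:10792106-10792225): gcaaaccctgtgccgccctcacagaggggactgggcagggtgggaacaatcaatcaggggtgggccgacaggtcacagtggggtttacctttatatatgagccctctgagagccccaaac
Tnp1 (chr1:73015900-73016019): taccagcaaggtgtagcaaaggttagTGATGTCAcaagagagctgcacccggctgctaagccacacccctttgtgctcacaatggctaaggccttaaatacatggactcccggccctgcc
Tnp2 (chr16:10788656-10788775): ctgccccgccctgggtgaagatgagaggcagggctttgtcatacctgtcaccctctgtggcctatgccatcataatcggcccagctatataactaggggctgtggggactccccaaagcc

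A match began 64 bases before the start of Prm1 and 94 bases before that of Tnp1, and these letters were not in the 250 bases before Prm2 or Tnp2. In windows of 250 bases, 13 of 40 promoters of the elongating spermatid list held the motif (32.5%), against 9.64% of 13667 promoters of all genes kept that could be matched. The 40 promoters belong to 30 genes, and the 13667 to 10722 genes, so 1 gene can count more than once. Since the motif was chosen from sequences of spermatid genes, its share among such genes is a description and not a test. The share was 12.5% for genes lower in IMA10 libraries 1 and 2 and higher in library 3, and 9.44% for genes of the opposite class. It was 14.3% (9 of 63 promoters) for genes higher in all 3 IMA10 libraries and 7.3% for genes lower in all 3. A match describes the letters and not a binding site.

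The distance from the untreated testis widened along the path from meiosis to spermatid elongation. Genes of early meiotic prophase were at a median of 83.4%, 90.4% and 45.7% of the untreated mean in the IMC libraries, and at 13.0%, 57.2% and 137% in the IMA10 libraries. For pachytene and later spermatocytes these medians were 26.5%, 28.6% and 10.4% in IMC and 2.24%, 8.97% and 108% in IMA10. IMA10 library 3 was near the untreated median for pachytene and later genes, while libraries 1 and 2 were below all 3 IMC libraries. For early meiotic genes only IMA10 library 1 was below all 3, since library 2 lay above IMC library 3.

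The medians of the spermatid lists were below the untreated level in all 6 libraries. Round spermatid genes stood at 12.4%, 9.31% and 5.58% in IMC and at 1.47%, 4.5% and 49.4% in IMA10. Elongating spermatid genes stood at 3.58%, 2.72% and 1.75% in IMC and at 0.462%, 1.1% and 20.7% in IMA10. Single genes departed from the medians: the round spermatid gene Zpbp2, a zona pellucida binding protein of the acrosome, was at 228.2 FPKM in IMA10 library 3 and at 193.8 to 207.8 FPKM in the untreated libraries. The lists from early meiosis on and the mitosis list make 7 lists. All 7 had their lowest level of the 9 busulfan libraries in IMA10 library 1, and 6 had their highest in IMA10 library 3. The spermatogonial lists are not among the 7. Undifferentiated spermatogonia markers had their lowest mean log2 level in IMA10 library 3 (2.47) and differentiating ones in IMA10 library 1 (2.25). Both were highest in saline library 1. The column names of the untreated libraries begin differently from those of the busulfan libraries, and a difference in processing between them cannot be told apart from the treatment.

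**Figure D2:**
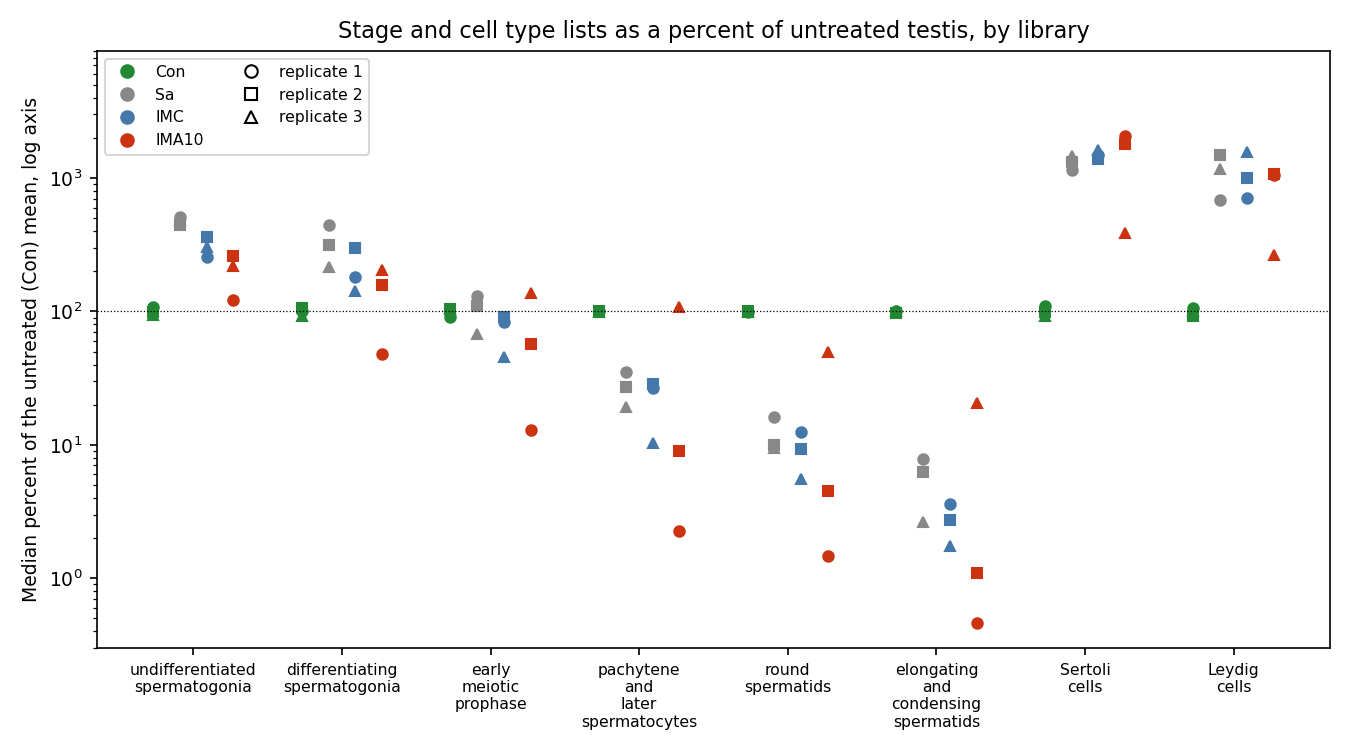
Each point is 1 library, and the y axis (log scale) gives the median over the genes of a list of FPKM as a percent of the mean of the 3 untreated (Con) libraries. IMA10 library 3 lies above and IMA10 libraries 1 and 2 lie below the 3 IMC libraries for pachytene, round and elongating stages, and the order is reversed for Sertoli cell genes.

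Ldhc, the lactate dehydrogenase subunit of spermatocytes and sperm, showed how far the libraries spread. It was at 563.4, 670.2 and 252.8 FPKM in IMC and at 51.2, 196.4 and 2445 FPKM in IMA10. Its level in IMA10 library 3 was close to the untreated range of 2476 to 2528 FPKM. The group difference was -0.64 ± 1.39 (log2, SE; limma adjusted p = 1), and without IMA10 library 3 it was -2.17 ± 0.66 (limma adjusted p = 0.255).

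In the piRNA pathway, which silences transposons in germ cells, Mael was at 259.9, 301.8 and 121.4 FPKM in IMC and at 25.6, 114.2 and 963.1 FPKM in IMA10. Dazl, an RNA-binding protein of germ cells placed on the same list, behaved differently: it was at 39.7, 45.5 and 26.5 FPKM in IMC and at 7.43, 37.2 and 39.0 FPKM in IMA10. Only IMA10 library 1 was outside the IMC range for Dazl. Dmc1, the meiotic recombinase, was likewise inside the range of the IMC libraries (8.82, 13.2 and 6.51 FPKM) in IMA10 library 3, at 7.74 FPKM. In IMA10 libraries 1 and 2 it was below that range, at 1.69 and 5.77 FPKM.

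Spermatogonial lists had no median above the IMC mean in IMA10 library 3 on the deposited scale, and their signs depended on the scaling. The 11 undifferentiated spermatogonia markers that passed the filter had medians of -0.42, -0.09 and -0.23 (log2) in IMA10 libraries 1, 2 and 3 relative to the IMC mean, beside -0.11, -0.02 and -0.32 for all genes. Under quantile normalization these 3 medians were 0.02, 0.08 and 0.17, so no direction can be given. The other 11 markers of that list were below the filter, with 1.63 FPKM as their highest value. Differentiating spermatogonia markers had medians of -1.5, -0.31 and -0.05, of which the value for library 3 was 0.32 under median-of-ratios scaling and 0.15 under quantile normalization. Dmrtb1, a transcription factor that controls the entry of spermatogonia into meiosis and the most abundant marker of that list, was at 103.7, 124.8 and 40.9 FPKM in IMC and at 8.72, 34.3 and 479.4 FPKM in IMA10. It was thus above the IMC range in library 3 and below it in the other IMA10 libraries.

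A few spermatogonial genes kept 1 direction. Kit, the stem cell factor receptor of differentiating spermatogonia that Leydig cells also carry, was at 8.54, 15.7 and 19.3 FPKM in IMC and at 7.61, 7.48 and 5.84 FPKM in IMA10. All 3 IMA10 libraries were below all IMC libraries, narrowly so against IMC library 1, and the difference was -0.90 ± 0.35 (log2, SE; limma adjusted p = 1). Ret, the GDNF receptor of undifferentiated spermatogonia, was at 1.24, 1.27 and 1.06 FPKM in IMC and at 0.40, 0.91 and 0.77 FPKM in IMA10. Its difference of -0.38 ± 0.21 (limma adjusted p = 1) was 0.06 under quantile normalization, and its levels are close to the filter. Stra8, which licenses entry into meiosis, overlapped between the groups, with 18.3, 35.7 and 12.1 FPKM in IMC and 3.68, 13.6 and 16.2 FPKM in IMA10.

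**Figure D3:**
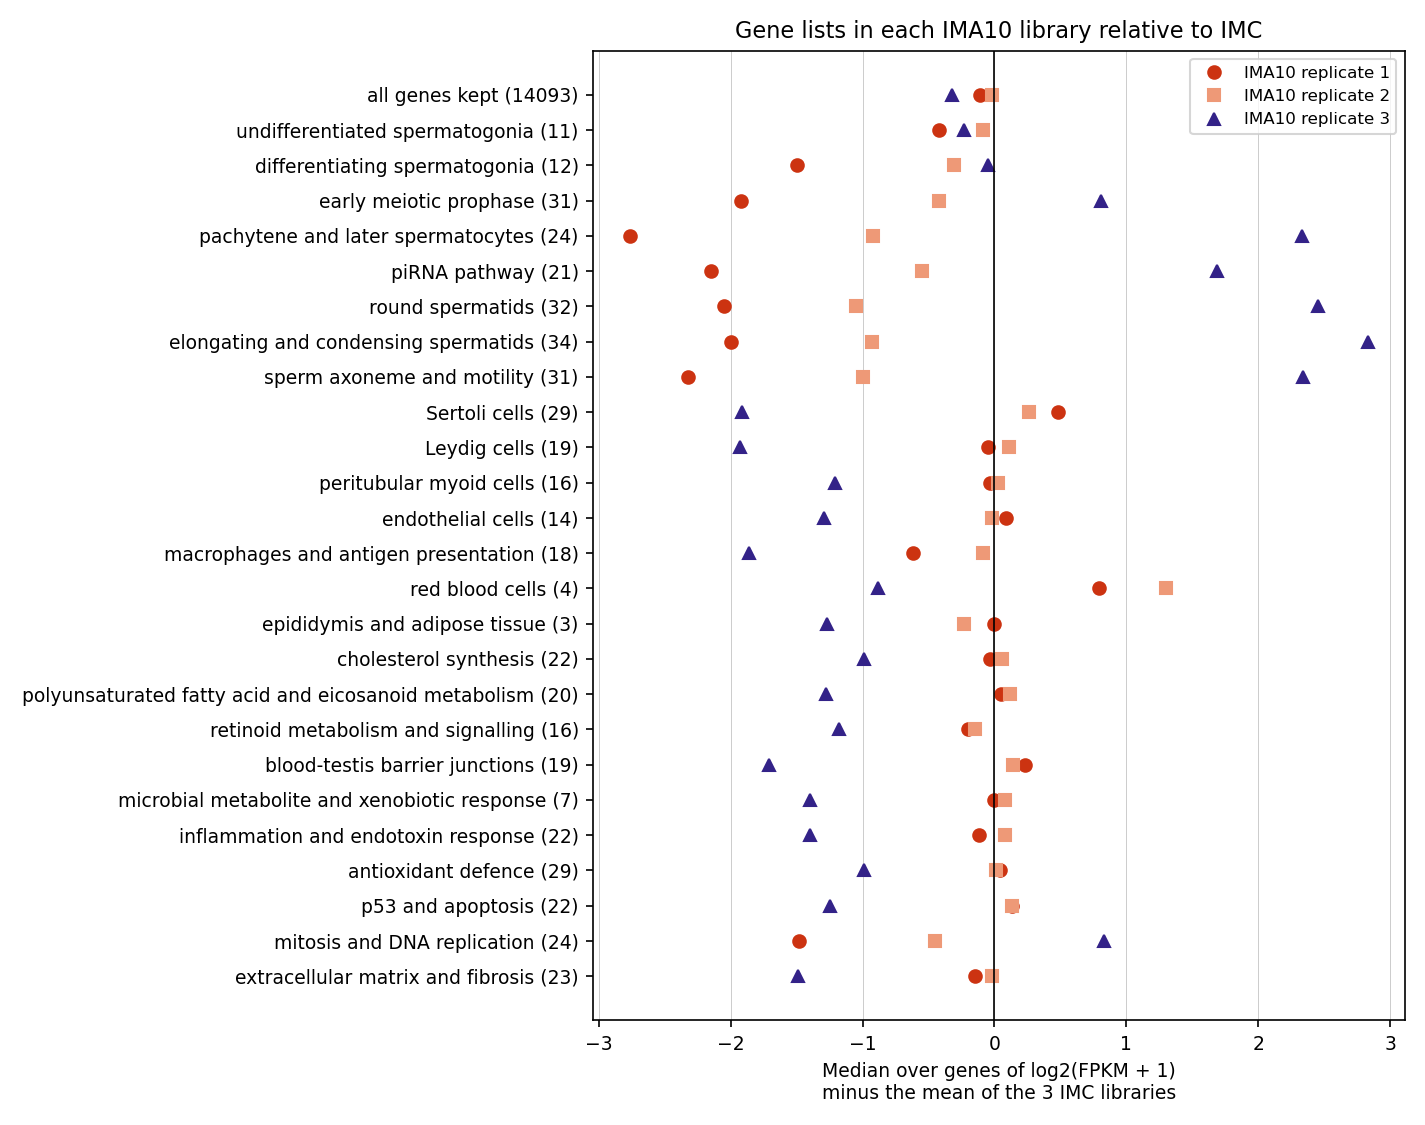
For each gene list (number of genes in parentheses), 3 points give the median of log2(FPKM + 1) minus the mean of the 3 IMC libraries in each IMA10 library. Germ cell lists from early meiosis on lie at opposite sides of 0 in library 3 and in libraries 1 and 2. The Sertoli, Leydig, myoid, endothelial and macrophage lists lie lowest in library 3, and the macrophage list is below 0 in all 3 libraries.

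Somatic genes were low in IMA10 library 3 relative to the other busulfan libraries. Of 95 genes of the Sertoli, Leydig, peritubular myoid, endothelial and macrophage lists, 91 were below the whole IMC range in IMA10 library 3, where 54.8% of all genes were, and all 5 lists had their lowest level of the 9 busulfan libraries there. Of the 95, 25 were also above the range in both other IMA10 libraries, where 13.6% of all genes had this pattern. They were 21 of 29 Sertoli, 2 of 16 myoid and 2 of 14 endothelial markers, with 0 of the Leydig or macrophage markers. In IMA10 libraries 1 and 2 Sertoli markers were above the IMC mean, with medians of 0.48 and 0.26, against -1.91 in library 3. Leydig markers had medians of -0.05, 0.11 and -1.93, and myoid markers -0.03, 0.03 and -1.21. Macrophage markers had medians of -0.62, -0.09 and -1.86, with 17 of 18 below the IMC mean in library 1 and 10 of 18 in library 2. The Sertoli medians kept these signs under both other scalings. In IMA10 library 3 the medians of these lists were still above the untreated mean, from 159% of it for endothelial to 388% for Sertoli markers.

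Clu, clusterin, the most abundant of the Sertoli markers, was at 7373, 7233 and 8678 FPKM in IMC and at 10873, 8288 and 1834 FPKM in IMA10. IMA10 library 1 was above and library 3 below all IMC libraries, and the difference was -0.50 ± 0.71 (log2, SE; limma adjusted p = 1). Insl3, the Leydig cell hormone insulin-like 3, was at 3248, 4563 and 10883 FPKM in IMC and at 5271, 5512 and 1419 FPKM in IMA10. The IMC libraries alone differed more than 3-fold for Insl3, and IMA10 libraries 1 and 2 lay inside their range. The junctions of Sertoli cells that form the blood-testis barrier had medians of 0.23, 0.14 and -1.71 in the 3 IMA10 libraries.

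Cldn3, a claudin of the blood-testis barrier, was an exception among these junction genes in IMA10 library 3. It was at 9.97, 16.9 and 10.5 FPKM in IMC and at 28.7, 31.1 and 14.6 FPKM in IMA10. Libraries 1 and 2 were above every IMC library, while library 3 lay between IMC libraries 3 and 2. The difference was 0.91 ± 0.38 (log2, SE; limma adjusted p = 1), or 1.24 ± 0.24 without IMA10 library 3 (limma adjusted p = 0.255). Untreated testes had 30.6 to 33.4 FPKM.

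Some macrophage and matrix genes were lower in all 3 IMA10 libraries. This held for 3 of 18 macrophage genes, 6 of 23 matrix genes and 2 of 11 undifferentiated spermatogonia genes, beside 2.85% of all genes. Most macrophage and matrix genes were low in library 3, so the count depends mainly on libraries 1 and 2. In libraries 1 and 2 alone, 4 of 18, 6 of 23 and 3 of 11 were below the IMC range. The share of all genes there was 22.6%, so these counts were near that of all genes. Csf1r, the receptor through which macrophages are maintained, was at 13.8, 15.6 and 23.0 FPKM in IMC and at 10.6, 12.7 and 4.03 FPKM in IMA10. Trem2, a lipid receptor of macrophages, was at 8.02, 11.3 and 14.7 FPKM in IMC and at 5.53, 7.67 and 2.36 FPKM in IMA10. The groups did not overlap for either gene, and the differences were -0.96 ± 0.45 for Csf1r and -1.07 ± 0.44 for Trem2 (log2, SE; limma adjusted p = 1 for both). Without IMA10 library 3 they were -0.52 ± 0.24 and -0.68 ± 0.28 (limma adjusted p = 0.312 and 0.28). Neither Csf1r nor Trem2 was below the whole IMC range in every IMA10 library under all 3 scalings. The same was true of Kit, Ret, Vwf, Stra6, Rdh10 and Tap1, and of Col1a1, Col1a2, Col6a1 and Fn1.

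The 23 matrix and fibrosis genes had a median difference of -0.52 beside -0.16 for all genes, and 6 of them were lower in all 3 IMA10 libraries: Col1a1, Col1a2, Col3a1, Col6a1, Col18a1 and Fn1. Without library 3 the list's median was -0.04 and that of all genes -0.05. Col18a1, a basement membrane collagen, was at 79.4, 71.7 and 103 FPKM in IMC and at 58.8, 55.9 and 16.5 FPKM in IMA10. Col3a1, a fibrillar collagen, was at 21.7, 21.3 and 25.6 FPKM in IMC and at 15.9, 19.0 and 8.5 FPKM in IMA10. Of the 6, only these 2 collagens stayed below the IMC range under all 3 scalings, with differences of -1.12 ± 0.52 and -0.69 ± 0.34 (log2, SE; limma adjusted p = 1 for both). Saline libraries ranged from 47.5 to 107 FPKM for Col18a1 and overlapped both groups. Vwf, von Willebrand factor of endothelial cells, was at 7.80, 7.93 and 9.82 FPKM in IMC and at 6.58, 5.90 and 2.67 FPKM in IMA10.

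Other genes lower in every IMA10 library included the complement components C3 and C4b and, chosen after its values were seen, C7. C3, the central component, was at 29.5, 30.7 and 71.6 FPKM in IMC and at 17.3, 24.5 and 5.48 FPKM in IMA10. C4b was at 8.17, 8.38 and 22.5 FPKM in IMC and at 4.27, 4.05 and 2.89 FPKM in IMA10. C7, of the membrane attack complex, was at 47.2, 49.5 and 95.8 FPKM in IMC and at 28.0, 31.5 and 19.5 FPKM in IMA10.

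All 3 were highest in IMC library 3, stayed below the IMC range in every IMA10 library under all 3 scalings, and did not pass the test: the difference was -1.51 ± 0.62 for C3 and -1.43 ± 0.44 for C4b (log2, SE; limma adjusted p = 1 for both). C4b has a near-identical neighbouring copy, so its reads may be shared. Complement genes did not all share this: C2 was at 23.2, 19.4 and 21.1 FPKM in IMC and at 23.2, 19.3 and 0.09 FPKM in IMA10. In the saline group C3 was at 13.9, 24.1 and 39.6 FPKM, which overlapped both microbiota groups.

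The largest gaps in the lower direction belonged to single genes with a wide spread in the IMC or saline libraries. Slc25a18, a mitochondrial glutamate carrier, was at 21.6, 13.5 and 1.05 FPKM in IMC and at 0.11, 0.03 and 0.00 FPKM in IMA10. The groups did not overlap, but IMC library 3 was close to them, and saline libraries were at 20.1, 21.4 and 0.88 FPKM. The difference was -3.07 ± 0.89 (log2, SE; limma adjusted p = 1), and -5.64 with a pseudocount of 0.1. Rsph3b, a radial spoke gene, was at 52.2, 84.5 and 36.1 FPKM in IMC and at 21.3, 11.9 and 16.6 FPKM in IMA10 (difference -1.69 ± 0.39, limma adjusted p = 1). Its paralog Rsph3a, at 412.5 FPKM in IMA10 library 3, did not share that direction, and reads may be split between the copies. Rps28, a ribosomal protein gene for which the same holds, was at 174.7, 148.1 and 99.4 FPKM in IMC and at 66.3, 3.15 and 21.1 FPKM in IMA10.

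Apart from Abcf1, the named genes higher in all 3 IMA10 libraries differed by at most 0.67 (log2). Dtx3, a ubiquitin ligase of the Deltex family, was at 21.2, 22.5 and 15.4 FPKM in IMC and at 30.9, 26.7 and 38.5 FPKM in IMA10 (difference 0.67 ± 0.26 in log2, SE; limma adjusted p = 1). Fmc1, an assembly factor of mitochondrial ATP synthase, was at 16.4, 18.3 and 19.7 FPKM in IMC and at 23.0, 24.4 and 23.1 FPKM in IMA10 (difference 0.36 ± 0.21, limma adjusted p = 1). For Fmc1 the 3 IMA10 libraries lay close together, above the IMC libraries and above the saline values of 17.4, 17.9 and 20.5 FPKM. None of the list members was higher in all 3 IMA10 libraries. Of the 63 genes, 10 are rows that the authors name as new genes.

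**Figure D4:**
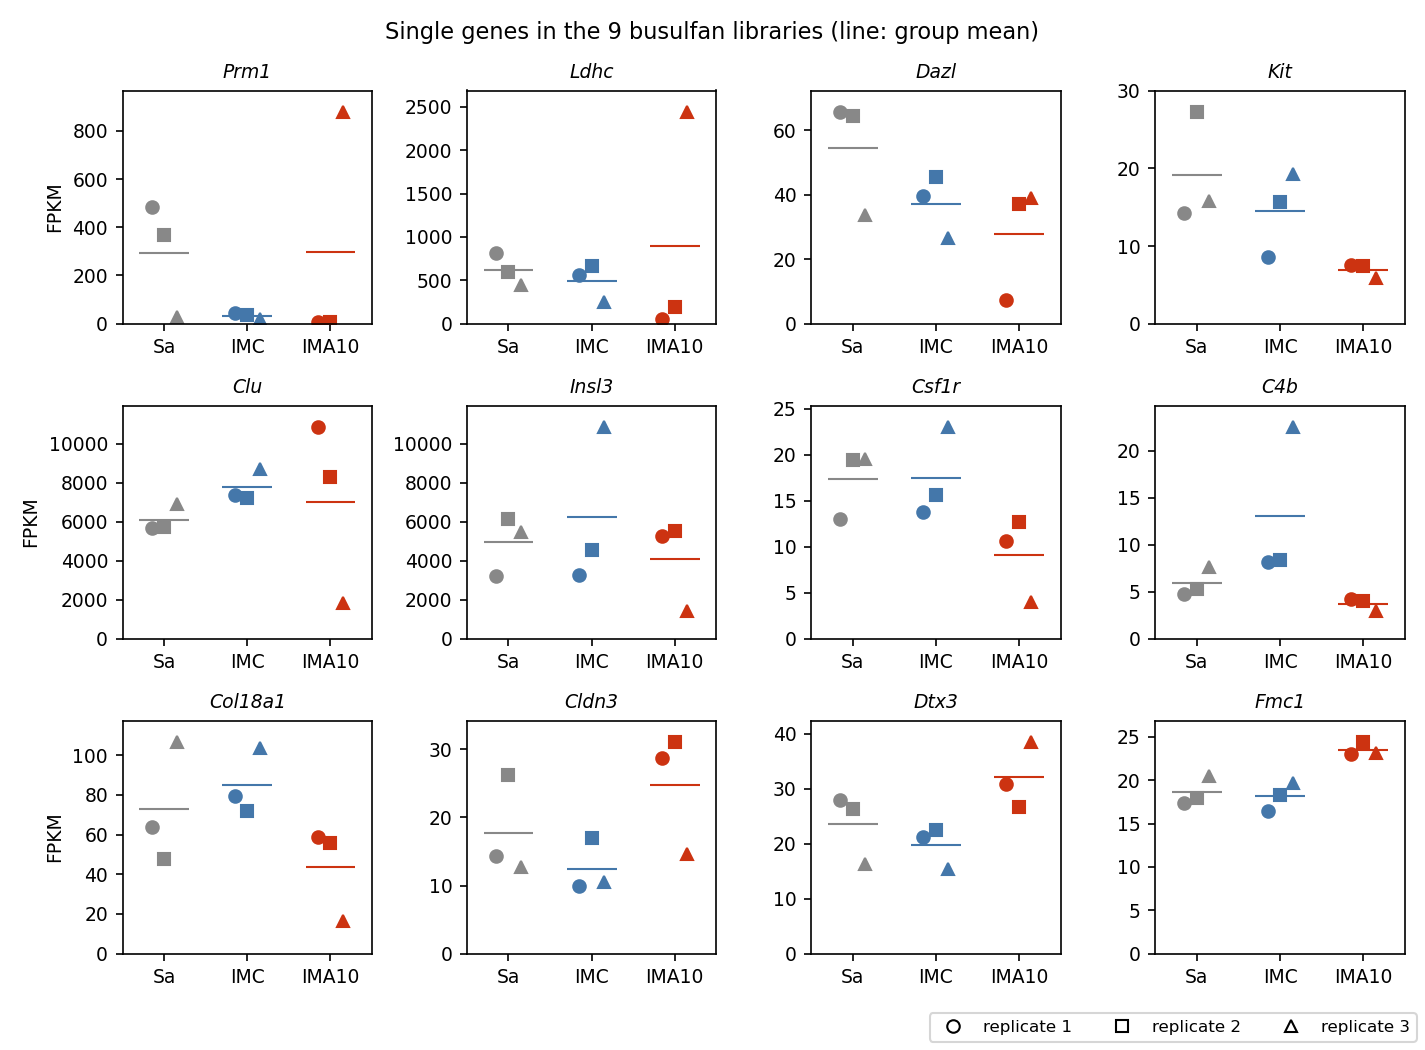
FPKM of 12 genes in each of the 9 busulfan libraries, with 1 panel a gene, 1 marker shape a replicate number and a line at the group mean; each y axis starts at 0. Prm1 and Ldhc are high in IMA10 library 3, Clu and Insl3 are low in it, Kit, Csf1r, C4b and Col18a1 are lower and Dtx3 and Fmc1 higher in all 3 IMA10 libraries than in the 3 IMC libraries.

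Abcf1, an ABC-family protein that acts in translation, had the largest difference among the genes higher in all 3 IMA10 libraries. It was at 1.53, 28.0 and 15.7 FPKM in IMC and at 41.7, 41.1 and 34.8 FPKM in IMA10 (difference 1.91 ± 0.89 in log2, SE; limma adjusted p = 1). The saline libraries were at 1.16, 15.6 and 26.8 FPKM and the untreated ones at 1.80, 21.3 and 1.61 FPKM, so at least 1 library of each of these groups was below 2 FPKM.

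Abcf1 lies in the H2 region of chromosome 17, the mouse major histocompatibility complex, which carries antigen presentation genes and differs in sequence between mouse haplotypes. Of 10031 genes with at least 5 FPKM in the highest IMC library and a symbol that is not a predicted one, 17 differed 8-fold or more within IMC, and 9 of these (52.9%) lie between H2-K1 and Mog, a stretch that holds 0.615% of the genes kept that have a symbol. The 9 are Tubb5, Abcf1, Gnl1, Trim26, Ppp1r10, Ier3, Znrd1as, Mdc1 and H2-T22. With a 3-fold limit, 16 of 67 genes of the region (23.9%) differed within IMC, against 3.1% of all genes at that level that have a symbol. Of these 16, 15 were lowest in IMC library 1, and for 14 of the 15 saline library 1 was also the lowest of its group.

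**Figure D5:**
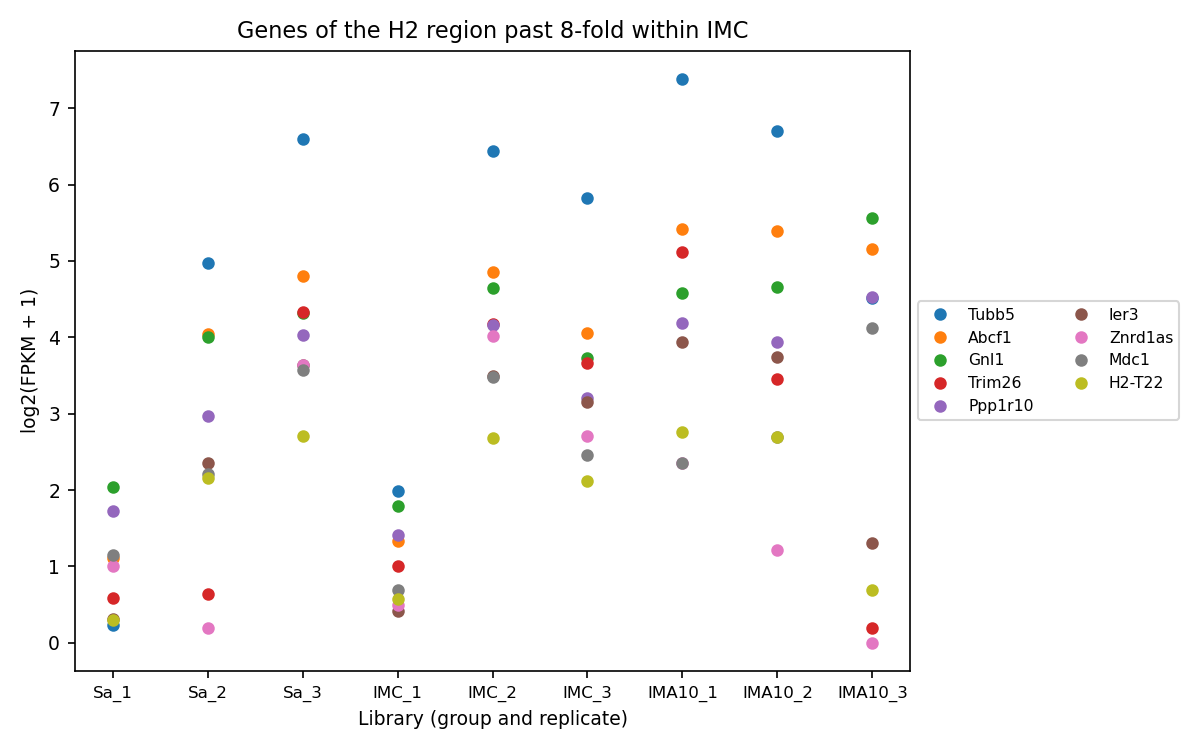
The y axis gives log2(FPKM + 1) of the 9 genes of the H2 region that differ 8-fold or more between IMC libraries, in each of the 9 busulfan libraries on the x axis. IMC library 1 is the lowest IMC library for all 9 genes, while the 3 IMA10 libraries differ from one another gene by gene.

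The region also holds genes of the opposite class. H2-Ea, an MHC class II chain, was at 6.52, 6.37 and 3.89 FPKM in IMC and at 1.77, 0.82 and 0.65 FPKM in IMA10, with a difference of -1.68 ± 0.32 (log2, SE; limma adjusted p = 1). Tap1, the peptide transporter of class I presentation, was at 6.55, 3.86 and 5.04 FPKM in IMC and at 3.17, 0.84 and 0.54 FPKM in IMA10. Both groups stood apart, but the saline libraries covered the whole span, with 16.5, 12.5 and 0.78 FPKM for H2-Ea and 8.32, 6.06 and 0.91 FPKM for Tap1. The cause of the spread in this region was not tested.

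Lists of metabolic and response genes also had their lowest medians in IMA10 library 3. Polyunsaturated fatty acid and eicosanoid genes had medians of 0.05, 0.12 and -1.28 in IMA10 libraries 1, 2 and 3, and cholesterol synthesis genes -0.03, 0.06 and -0.99. Inflammation and endotoxin response genes had medians of -0.12, 0.08 and -1.40, and antioxidant genes 0.04, 0.01 and -0.99. Among the lists of this kind, retinoid genes had negative medians in all 3 libraries, -0.20, -0.15 and -1.18, of which the first was 0.10 under quantile normalization. Stra6, the retinol uptake receptor, was at 13.9, 17.1 and 23.4 FPKM in IMC and at 12.7, 12.6 and 5.21 FPKM in IMA10, and Rdh10, which oxidises retinol, was likewise lower in every IMA10 library. None of these lists had a member called by limma in either direction.

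Without IMA10 library 3, the groups did not overlap for 3183 lower genes (22.6%) and 2034 higher genes (14.4%). The genes named next had the smallest p in that comparison. Cbarp, a regulator of calcium channels, was at 9.42, 11.2 and 11.9 FPKM in IMC and at 23.6 and 21.7 FPKM in IMA10 libraries 1 and 2, with 2.32 FPKM in library 3. Its difference was 1.00 ± 0.15 without library 3 (log2, SE; limma adjusted p = 0.255) and 0.06 ± 0.80 with it. Cstdc2, a cystatin-domain gene of a multigene family, was at 4.29, 4.42 and 7.59 FPKM in IMC and at 19.4, 16.5 and 5.98 FPKM in IMA10.

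In the lower direction, Spata46, a spermatid gene, was at 17.8, 17.4 and 10.6 FPKM in IMC and at 2.98, 5.02 and 77.4 FPKM in IMA10. Library 3 was above and the other IMA10 libraries were below the IMC range. A fit of the 11 libraries without IMA10 library 3 called 2 genes lower, of which Ranbp1, a regulator of the Ran GTPase, has a symbol (limma adjusted p = 0.0031). Ranbp1 was at 9.39, 9.74 and 4.37 FPKM in IMC, listed at 0 in IMA10 libraries 1 and 2, and at 18.2 FPKM in library 3. It was at 8.46, 10.2 and 9.59 FPKM in the saline libraries and listed at 0 in all 3 untreated libraries. That fit takes its spread from the saline and untreated libraries also, and the fit without them called 0 genes.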

How the data were processed

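The authors deposited FPKM values with 2 decimals, 1 column per library, per the file headers. The sources used here do not give the aligner, counting program, genome build or annotation, and read depth is unknown, so no counting interval can be given. FPKM divides by the library total, so abundant transcripts in 1 library lower all its other values. Of 22221 rows, 20288 carry a Gene ID and 1933 are the authors' new genes. Symbols were found for 20141 IDs in a RefSeq table (GRCm38.p6). Genes with at least 1 FPKM in 3 of the 6 libraries (14093) were fitted as log2(FPKM + 1) with limma 3.58.1 in R 4.3.3, using a variance trend, 1 mean per group and Benjamini-Hochberg adjustment. An adjusted p under 0.05 was called. These differences understate changes of low genes. The procedure was tested on simulated data.

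The comparison, the 26 gene lists (592 entries, 503 kept) and the naming rule were chosen with earlier results of these data known. The rule takes up to 3 members of smallest p and the most abundant member of each list, the 10 largest gaps in each direction among genes without overlap of at least 5 FPKM, the 5 smallest p in each direction without IMA10 library 3, and the 6 largest gaps of that library in each direction. It names 137 genes, of which a part is printed, selected by hand. Col1a2, Col6a1, Fn1, C7 and the H2 region genes other than Abcf1, H2-Ea, C4b and Tap1 were chosen after their values were seen. No set was tested for enrichment.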

Additional observations from a re-analysis of the deposited data

How the results depend on the processing

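Limma with Benjamini-Hochberg adjustment called 0 genes in either direction under every alternative except the fit of the 11 libraries without IMA10 library 3, which called 2 lower and 0 higher. The counts of genes without overlap changed with the scaling, the filter and the libraries. Higher genes numbered 340 under median-of-ratios scaling, 626 under quantile normalization, 116 with no filter and 40 with a filter of 5 FPKM, and 120 to 2034 when 1 library was left out. Lower genes numbered 163, 70, 689 and 201 under the same settings and 612 to 3183 when 1 library was left out, which by itself makes overlap rarer. Without IMA10 library 3, median-of-ratios scaling gave 2594 higher and 2844 lower genes and quantile normalization 4141 and 1984. Both of these were chosen after seeing the data. With the replicate number as a block, 0 genes were called and 25 had an unadjusted p under 0.05, against 60 without it. Same-numbered libraries deviated in opposite directions (correlations of -0.46, -0.59 and -0.79 across genes), so the numbers were not used as pairs.

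Of 25 genes, 18 kept the sign of their difference under every alternative computed for them (Ret, H2-Ea, Tap1 and Slc25a18 did not pass the filter of 5 FPKM). Prm1 was -2.13 with array weights, -2.12 with the 11 libraries, -2.06 and -1.91 without IMA10 library 3 under median-of-ratios and quantile scaling, and -2.12 to 1.43 with 1 library left out. Clu was 0.20, 0.30, 0.36 and 0.25 under the same 4 settings and -0.99 to 0.30 with 1 library left out. Insl3 was 0.21 with array weights and 0.05 under median-of-ratios scaling without IMA10 library 3, Ret was 0.06 under quantile normalization, and Cbarp was -0.02 with a pseudocount of 0.1. With 1 library left out, Ldhc ranged from -2.17 to 0.60, Cbarp from -0.44 to 1.00 and Spata46 from -1.70 to 0.45. The smallest adjusted p of any of these genes under any alternative was 0.0677. Read depth is unknown, so the precision of low values cannot be given.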

Other observations

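Some genes were at or near 0 in part of the libraries. The beta globin gene Hbb-bs was at 0.00, 14.1 and 0.58 FPKM in IMC and at 15.3, 29.2 and 2.84 FPKM in IMA10, while the alpha globin gene Hba-a1 was at 173.0, 157.0 and 207.4 FPKM in IMC and at 183.1, 186.2 and 53.7 FPKM in IMA10. The ribosomal protein gene Rpl26, chosen after its values were seen, was at 109.2, 6.04 and 211.2 FPKM in IMC and at 58.6, 3.97 and 4.18 FPKM in IMA10. Globin genes and ribosomal protein genes have near-identical copies, and reads may be shared between them.

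Among genes of at least 5 FPKM in the other IMA10 and IMC libraries, Tmem179b, H2aw and Gp1bb were listed at 0 in IMA10 library 3. These genes were also listed at 0 in all 3 untreated libraries, and H2aw in saline library 1. Gp1bb was above the IMC range in IMA10 libraries 1 and 2. The surface antigen gene Ly6e was at 48.0 FPKM in that library, against 311.5 to 516.0 FPKM in the others. No comparison of the report rests on these genes.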
